A study of Mus musculus with 2 samples.

Results

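The mRNAs of 10 tetraspanins, *Cd9*, *Cd81*, *Cd63*, *Cd82*, *Cd53*, *Cd37*, *Cd151*, *Tspan3*, *Tspan4* and *Tspan14*, were followed across the cell types of the injured mouse thalamus. They were taken by gene symbol from the 33696 genes counted in each of 2 single-cell libraries, and 10 of 10 symbols were found. The mice were of the strain that the labels spell C57B6/J, and all of them, controls included, had a cortical ablation injury (CAI), the removal of the right sensory motor cortex by suction, and a cannula in the right thalamus. One library came from mice given a control antibody (Ab), normal rat IgG, and the other from mice given an anti-CD9 antibody, the rat clone KMC8, each at 1.0 µg/µl from day 7 to day 19 after injury. Live CD45+ cells were sorted from the thalamus on day 21, and the study's methods describe thalamic cells of 4 mice pooled into a library. The study used female mice for most experiments and gives the age of its animals as 12 weeks. Because there was 1 library per antibody, no difference between the antibodies could be tested. Antibody, mouse pool and library cannot be told apart, and the intervals below cover counting error only. A library that pools mice also cannot show how mice differed, and the sort was aimed at CD45+ cells, so the astrocyte-, oligodendrocyte- and mural or fibroblast-like cells below are what passed it. The libraries are called the control library and the anti-CD9 library.

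Tetraspanins are small proteins that cross the membrane 4 times and gather integrins, immunoglobulin-like proteins and receptors into patches of the cell surface. CD9 and CD81 sit mainly at the plasma membrane and act in adhesion and membrane fusion, CD63 sits mainly on late endosomes, lysosomes and granules, and all of these are common on extracellular vesicles. CD53 and CD37 are largely restricted to leukocytes, CD82 and CD151 bind integrins, and TSPAN14 belongs to the group that escorts the protease ADAM10 to the cell surface. An antibody against CD9 binds the protein, and the libraries report mRNA.

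Across pairs of cell type and library, the level of *Cd63* was the most like that of *Cd9* (Pearson r = 0.923). For *Cd53* the coefficient was 0.301. In neutrophil-like cells *Cd9* and *Cd63* did not run together between the libraries. The promoters of these 3 members are shown, as the 250 bases before the RefSeq start in the GRCm38.p6 assembly. They are written 5′ to 3′ on the strand of the gene. Capitals mark matches to any of 5 motifs searched on both strands, with the letters given after the sequences.
Cd9, chr6:125494761-125495010, minus strand: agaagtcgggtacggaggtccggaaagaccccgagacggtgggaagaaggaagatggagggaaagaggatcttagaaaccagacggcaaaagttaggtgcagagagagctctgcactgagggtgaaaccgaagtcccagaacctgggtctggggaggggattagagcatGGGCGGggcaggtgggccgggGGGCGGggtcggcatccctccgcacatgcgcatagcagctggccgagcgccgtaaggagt
Cd63, chr10:128909095-128909344, plus strand: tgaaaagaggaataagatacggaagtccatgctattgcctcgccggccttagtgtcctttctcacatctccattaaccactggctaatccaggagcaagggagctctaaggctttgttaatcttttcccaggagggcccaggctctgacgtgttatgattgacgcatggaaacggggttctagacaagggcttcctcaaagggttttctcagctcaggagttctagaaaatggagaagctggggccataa
Cd53, chr3:106790150-106790399, minus strand: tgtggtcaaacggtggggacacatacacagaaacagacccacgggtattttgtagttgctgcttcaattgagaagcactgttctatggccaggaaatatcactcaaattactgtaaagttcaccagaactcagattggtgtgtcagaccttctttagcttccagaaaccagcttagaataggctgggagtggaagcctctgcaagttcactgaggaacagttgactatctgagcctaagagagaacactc
The *Cd9* window held 2 GC boxes and no other match, and the *Cd63* and *Cd53* windows held none of the 5 motifs. The GC box, spelled GGGCGG, was found in 32.7% of 32851 promoters of that length. The PU.1 core, which myeloid and B cell promoters often carry and which was spelled GAGGAAGT, was found in 2.44% of them. The E-box was spelled CACGTG and was found in 6.02% of these windows. For the TATA box the letters searched were TATAAA, and 12.4% of the windows held them. The AP-1 site was searched as TGANTCA, with any base at the N, and 6.75% of the windows held it. No motif overlapped another in the windows shown, and a match describes letters, not a site of binding.

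The files held 12245 barcodes with 38042608 unique molecular identifiers (UMIs, 1 per captured mRNA) for control Ab, and 15173 with 40825201 for the anti-CD9 antibody. With the study's limits on detected genes and mitochondrial reads, 7467 and 9162 cells were kept, with medians of 1880 and 1419 UMIs per cell. Predicted doublets made up 9.20% and 10.1% of them, were marked and were not removed. The cut on the doublet score marked a share of all barcodes that was fixed by their number. These percentages are therefore not measured doublet rates. The libraries shared 18 barcodes among kept cells. Clusters were made without tetraspanin genes and named from marker lists, which gave 10 cell types. A further 1356 and 2762 cells in 8 clusters stayed unnamed. In the named types compared most closely below, 10 of 10 microglial, 10 of 10 monocyte or macrophage, 9 of 9 neutrophil, 7 of 7 B cell and 9 of 9 T cell markers were detected in their own cells in both libraries. The names came from these same lists, and a marker counted as detected with 1 UMI in the pooled cells, so these counts do not separate the types. The 10 of 10 microglial markers were also detected in neutrophil- and T cell-like cells of both libraries. The sizes of the groups were unequal. There were 1954 microglia-like cells in the control library and 849 in the anti-CD9 library, 213 and 1251 monocyte- or macrophage-like cells, 63 and 2636 neutrophil-like cells, 29 and 103 B cell-like cells, 149 and 145 plasma cell-like cells, and 2805 and 1044 T cell-like cells.

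Levels are given as CPM, the UMIs of a gene scaled to 1000000 UMIs of the cell type. The 3′ chemistry tags each mRNA once at its end, so levels of different genes were compared with no term for length. With control Ab, *Cd9* was highest in monocyte- or macrophage-like cells at 4154 CPM and microglia-like cells at 4077 CPM, which overlapped in their 95% intervals. Neutrophil-like cells followed at 2205 CPM, oligodendrocyte-like cells at 1387 CPM, B cell-like cells at 937.5 CPM, astrocyte-like cells at 730.0 CPM and dendritic cell-like cells at 443 CPM. Plasma cell-like cells at 205 CPM and T cell-like cells at 166.5 CPM were lowest, and their intervals lay apart. Without marked doublets their order was the other way, at 113 CPM and 153.5 CPM, again with intervals apart. With anti-CD9 Ab the order differed. Neutrophil-like cells then held the highest *Cd9* level at 2381 CPM, microglia-like cells stood at 1817 CPM, and the intervals of these lay apart. Monocyte- or macrophage-like cells at 393 CPM overlapped with B cell-like cells at 380.2 CPM.

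Some other members were highest in the same cells as *Cd9*, and some in other cells. *Cd81* was highest in microglia-like cells in both libraries, at 2283 CPM and 1998 CPM. *Cd63*, the endosomal and lysosomal member, was highest in monocyte- or macrophage-like cells in the control library at 2744 CPM and in microglia-like cells in the anti-CD9 library at 1407 CPM. *Cd37* was highest in B cell-like cells in both libraries, at 859 CPM and 807 CPM, apart from every other named type. *Cd82* was highest in T cell-like cells, at 217 CPM and 181 CPM. In the control library its interval there overlapped with that of B cell-like cells, which held 12 *Cd82* UMIs. In the anti-CD9 library it lay apart from the next type. *Cd53* was highest in neutrophil-like cells, at 579.6 CPM in the control library, where it overlapped with monocyte- or macrophage-like cells, and at 1170 CPM in the anti-CD9 library, where it did not. The 4 remaining members stayed below 250 CPM in every named type of both libraries. *Tspan14* reached 214 CPM and 228 CPM in microglia-like cells, and *Tspan3*, *Tspan4* and *Cd151* stayed at or under 82.0 CPM there.

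**Figure D1:**
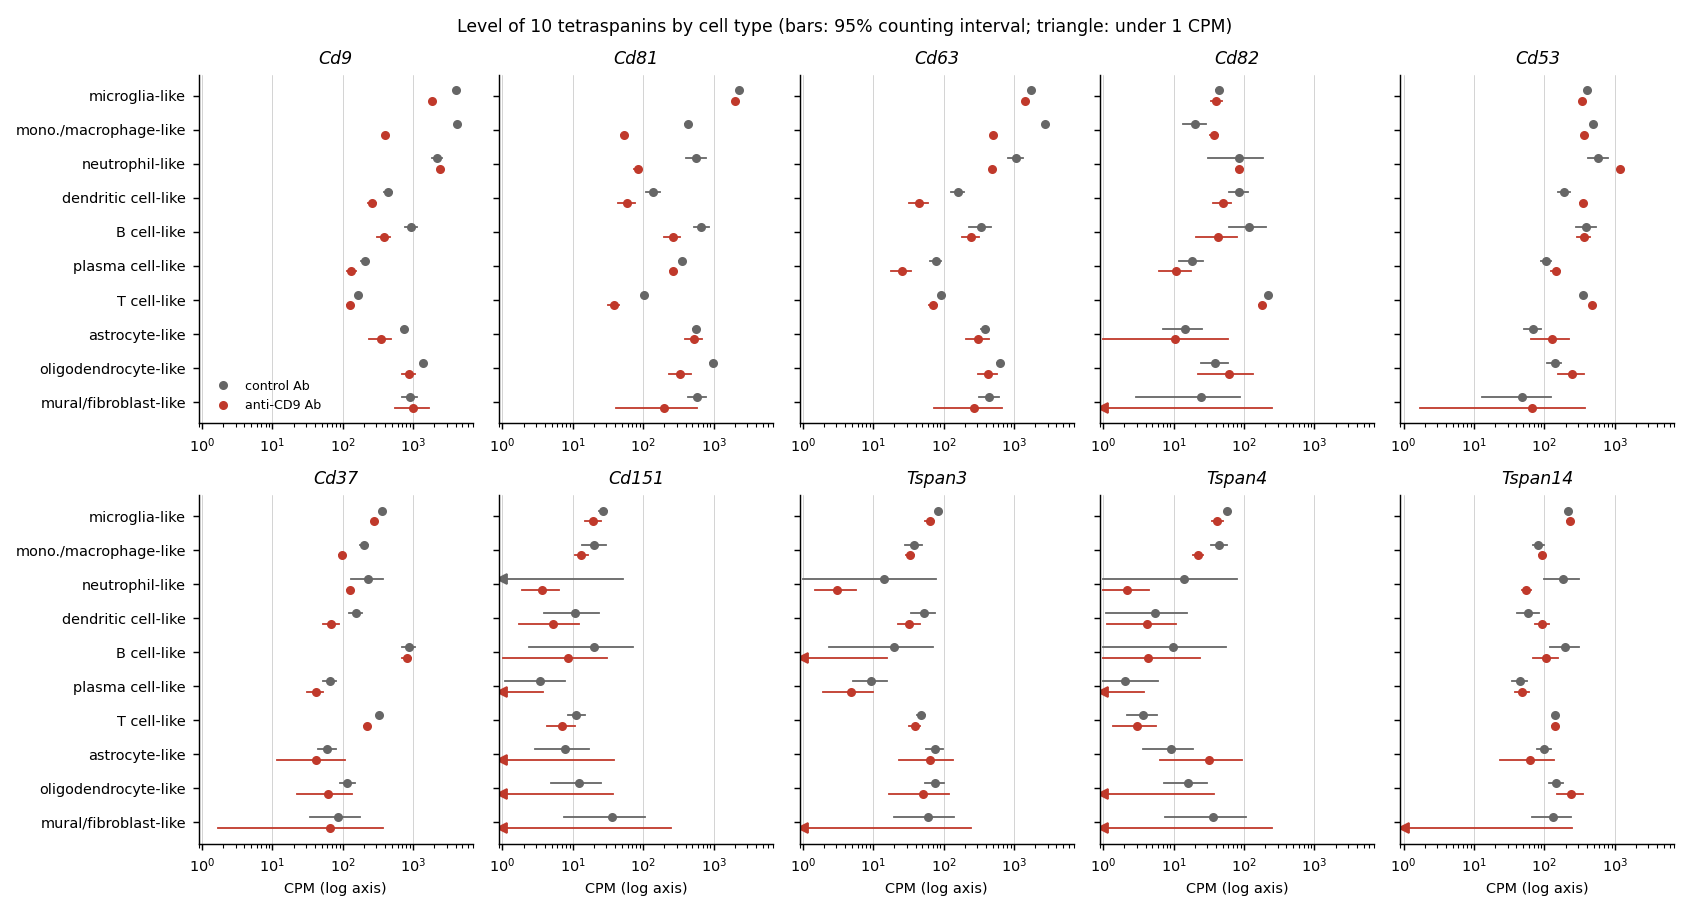
Level of each tetraspanin (1 panel per gene, CPM on a log axis) in the named cell types in the control library and in the anti-CD9 library; points are 1 library each, bars are exact Poisson 95% intervals, and triangles mark levels under 1 CPM. *Cd9* sits at 4077 CPM and 4154 CPM in microglia-like and monocyte- or macrophage-like cells in the control library, while *Cd37* peaks in B cell-like cells and *Cd53* in neutrophil-like cells.

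In microglia-like cells, *Cd9* gave 43887 UMIs in the control library and 5540 in the anti-CD9 library, 4077 CPM (95% interval 4039 to 4115) against 1817 CPM (1770 to 1866). The level was 2.24-fold lower in the anti-CD9 library, a log2 ratio of -1.17 (-1.21 to -1.125). It was the 1 member past a 2-fold difference, among 10 members with at least 50 UMIs. Of the 11130 genes with that many UMIs, 4.46% were 2-fold lower and 3.16% were 2-fold higher (7.62% either way). The other members differed less. *Cd81* was 2283 CPM against 1998 CPM, a log2 ratio of -0.19, and *Cd63* was 1725 CPM against 1407 CPM, a log2 ratio of -0.29. The leukocyte members *Cd53* and *Cd37* had log2 ratios of -0.22 and -0.37, and *Tspan3* and *Tspan4* of -0.36 and -0.46. *Cd151*, with 290 and 59 UMIs, was at -0.48 (-0.91 to -0.07). For *Cd82*, at -0.13 (-0.43 to 0.16), and *Tspan14*, at 0.09 (-0.03 to 0.22), the intervals included 0. The median log2 ratio of the 10 members was -0.33 against 0.01 for all genes. Without *Cd9*, the summed level of the other 9 members was 5198 CPM against 4424 CPM, a log2 ratio of -0.23.

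The lower *Cd9* level was present in both microglia-like clusters. In the cluster led by *Siglech* and *P2ry12*, it was 2667 CPM (985 cells) against 1388 CPM (492 cells), a log2 ratio of -0.94. In the cluster led by *Lpl*, *Spp1* and *Cst7*, genes of lipid handling and of the reactive microglial state, it was 4953 CPM (969 cells) against 2344 CPM (357 cells), a log2 ratio of -1.08. *Cd63* did not go the same way in them, at 914 CPM against 1049 CPM in the first and 2230 CPM against 1846 CPM in the second. The summed level of the 10 microglial markers also differed, at 13470 CPM against 8789 CPM, and its part in the *Cd9* difference was not tested.

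The difference was greater in monocyte- or macrophage-like cells. *Cd9* was 4154 CPM (4047 to 4263; 5750 UMIs) in the control library and 393 CPM (378 to 408; 2670 UMIs) in the anti-CD9 library. This was 10.6-fold lower, a log2 ratio of -3.40 (-3.47 to -3.335). *Cd81* was 431 CPM against 53.3 CPM, 8.09-fold lower, and *Cd63* was 2744 CPM against 499.6 CPM, 5.49-fold lower. *Cd37* was 200.1 CPM against 96.0 CPM, a log2 ratio of -1.06. These 4 of 10 members were 2-fold lower and 0 were 2-fold higher, where 6.41% of 9130 genes were 2-fold lower and 8.0% were 2-fold higher (14.4% either way). Which members were past 2-fold depended on the cells taken. Without marked doublets *Cd37* was at a log2 ratio of -0.955 and *Tspan4* at -1.03. *Tspan4* was 44.8 CPM against 22.5 CPM, just inside 2-fold, and *Cd53* was 487 CPM against 370.0 CPM, a log2 ratio of -0.40. *Tspan14* and *Tspan3* had intervals that included 0. *Cd82* was higher, at 20.2 CPM (28 UMIs) against 37.55 CPM (255 UMIs), a log2 ratio of 0.89 (0.33 to 1.51). The median over members was -0.80, against -0.02 for all genes.

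Microglial markers were also lower in these cells, with 10 of 10 detected and a summed level of 3723 CPM against 860.2 CPM. Values were therefore also taken without 3 of 7 sub-clusters, 1 led by microglial genes and 2 made mostly of marked doublets, a choice made after they were seen. In the remaining 137 and 890 cells *Cd9* was 4598 CPM against 394 CPM, a log2 ratio of -3.54, and *Cd63* was 3219 CPM against 512 CPM. *Cd81* was 209.8 CPM against 37.9 CPM there, and its log2 ratio was -2.47 in place of -3.02. *Cd81* was itself among the leading genes of the sub-cluster led by microglial genes, so this change is no finding. *Cd37* was at -0.935 and *Tspan4* at -1.21 in the remaining cells. *Cd82* was past 2-fold higher there, at 1.35 (0.43 to 2.44), with 10 control UMIs. *Tspan14* was at 0.77 (0.28 to 1.30), an interval clear of 0. The *Cd81* ratio also depended on the clustering, at -0.925 where the libraries were not integrated. Of the control Ab *Cd81* UMIs, 55.8% lay in marked doublets.

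Within the sub-clusters the *Cd9* level was lower in the anti-CD9 library in 7 of 7, although several held few control cells. The 7 include the 3 left out above, and of those the sub-cluster led by *S100a9* held 1 control cell. The sub-cluster led by *Spp1*, *Fabp5* and *Gpnmb*, lipid-handling and lysosomal genes of phagocytes, held the highest levels. There *Cd9* was 5475 CPM (100 cells) against 1045 CPM (171 cells), a log2 ratio of -2.39 (-2.495 to -2.285), and *Cd63* was 3993 CPM against 1679 CPM. *Cd9* and *Cd63* were among the leading genes of this sub-cluster, so their high level in it is no finding. In the sub-cluster led by *Ifitm1* and *Ccr2*, a chemokine receptor of recruited monocytes, *Cd9* was 2186 CPM (20 cells) against 290.5 CPM (174 cells). The smallest log2 ratio was -1.05, in the sub-cluster led by *Cxcl10*, with 8 and 144 cells. The sub-cluster led by *Saa3* and *Lcn2*, acute-phase genes, held 9 cells in the control library and 401 in the anti-CD9 library, at 1007 CPM and 209.8 CPM. Of the 137 and 890 cells in the 4 sub-clusters described here, 100 in the control library and 171 in the anti-CD9 library were in the one led by *Spp1*, where *Cd9* was highest. The pooled log2 ratio of -3.54 therefore also holds this difference in make-up, and it is larger in size than each of the 4 ratios within sub-clusters, which lay between -2.91 and -1.05.

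**Figure D2:**
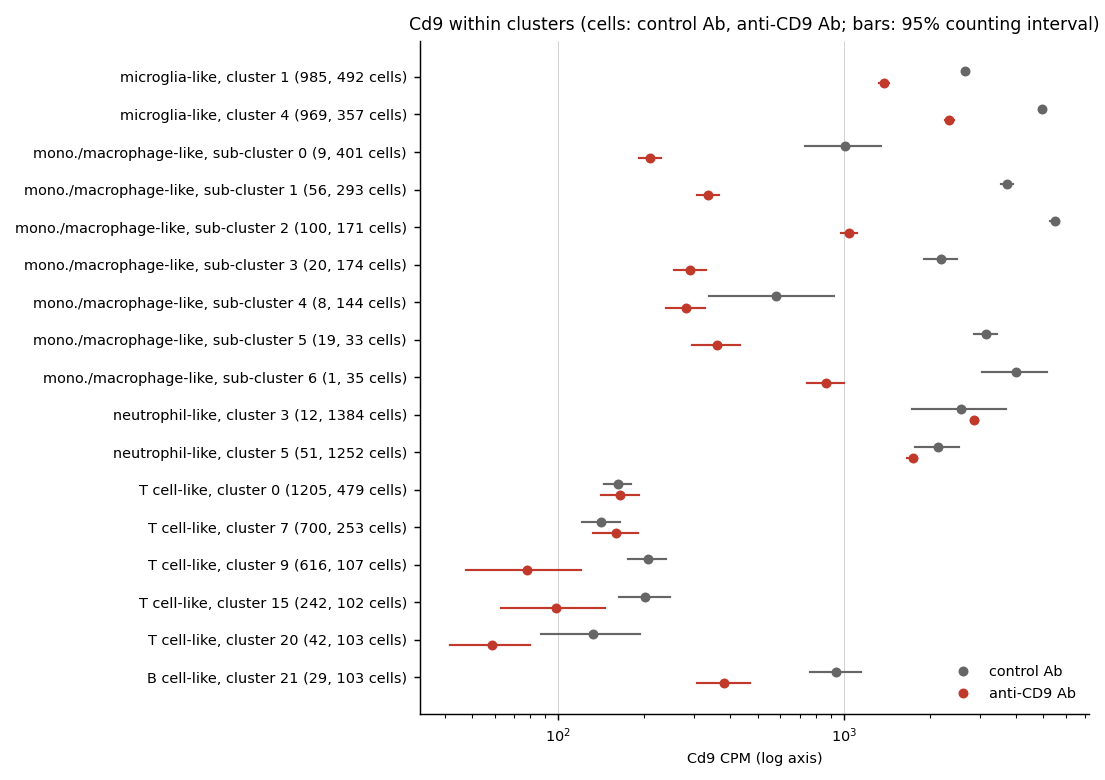
*Cd9* level (CPM on a log axis) in the control library (grey) and the anti-CD9 library (red) in each microglia-, neutrophil-, T cell- and B cell-like cluster and in each monocyte- or macrophage-like sub-cluster, with the number of cells; bars are exact Poisson 95% intervals and 1 library stands behind each point. The sub-cluster led by *Spp1* stands at 5475 CPM and 1045 CPM in the libraries, and the neutrophil-like clusters stand at 2578 CPM and 2862 CPM (led by *Cxcl2*) and at 2135 CPM and 1740 CPM (led by *Retnlg*).

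In neutrophil-like cells the *Cd9* levels of the libraries lay closer together. The control Ab library gave 156 *Cd9* UMIs in 63 cells, 2205 CPM (1873 to 2580), and the anti-CD9 Ab library 7769 UMIs in 2636 cells, 2381 CPM (2329 to 2435). The log2 ratio was 0.11 (-0.12 to 0.35), an interval that does not reach the ratio in microglia-like cells. In the 2 neutrophil-like clusters, the level was 2578 CPM against 2862 CPM in the one led by *Cxcl2* and *Ccl4* (12 and 1384 cells) and 2135 CPM against 1740 CPM in the one led by *Retnlg* and *S100a8* (51 and 1252 cells). The log2 ratio in the latter was -0.295 (-0.55 to -0.03), opposite in sign to the pooled one, and this cluster held 51 of 63 control cells but 1252 of 2636 cells of the anti-CD9 library. *Cd53* was 579.6 CPM (41 UMIs) against 1170 CPM (3818 UMIs), 2.02-fold higher, and it was higher in both clusters. *Cd63*, a protein of neutrophil granules, was 1060 CPM against 489.8 CPM, and *Cd81* was 565.5 CPM against 83.7 CPM, 6.76-fold lower. *Tspan14*, with 13 control UMIs, was 184 CPM against 55.5 CPM. *Cd82* was 84.8 CPM against 85.8 CPM, with 6 control UMIs. *Cd151*, *Tspan3* and *Tspan4* gave 0, 1 and 1 UMIs in the control library and 12, 10 and 7 in the anti-CD9 library, too few to compare.

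Of 7 neutrophil members with at least 50 UMIs, 3 were 2-fold lower and 1 was 2-fold higher. The background was wide, since 19.6% of 5342 genes were 2-fold lower and 19.9% were 2-fold higher (39.5% either way), and the median over all genes was -0.22. Relative to that median, *Cd9* stood at 0.335 and *Cd53* at 1.24. The members' median was -0.83. The control cells also held more microglial marker RNA, with a summed level of 1852 CPM against 393 CPM (10 of 10 detected in both). Monocyte or macrophage markers summed to 7747 CPM against 2547 CPM (6 of 10 and 10 of 10 detected). The cells' own neutrophil markers summed to 88900 CPM against 41980 CPM. The part of these in the neutrophil values was not tested.

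T cell-like cells had little *Cd9*. They gave 812 UMIs in 2805 cells in the control library, 166.5 CPM, and 379 UMIs in 1044 cells in the anti-CD9 library, 126.5 CPM, a log2 ratio of -0.40 (-0.58 to -0.22). The ratio rested on marked doublets, which held 14.9% of the *Cd9* UMIs in the control library (145 of the 2805 cells) and 62.8% in the anti-CD9 library (102 of the 1044 cells). Without them *Cd9* was 153.5 CPM against 52.4 CPM, a log2 ratio of -1.55 (-1.82 to -1.29). *Cd81* did not depend on them. It was 104 CPM against 38.1 CPM, 2.74-fold lower, with a log2 ratio of -1.45 with doublets and -1.43 without. It was the 1 of 9 members past 2-fold, where 2.51% of 9843 genes were 2-fold lower and 4.05% were 2-fold higher (6.56% either way).

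The tetraspanins that made up most of the T cell signal were others. *Cd53* was 350.2 CPM against 479 CPM, a log2 ratio of 0.45 (0.35 to 0.55), and 0.39 without doublets. *Cd37* was 326 CPM against 218 CPM, a log2 ratio of -0.58, and *Cd82* was 217 CPM against 181 CPM, a log2 ratio of -0.27 (-0.42 to -0.12). *Tspan14* was 141 CPM against 140.2 CPM. By cluster, *Cd9* ranged from 132.5 CPM to 205.5 CPM in the control library and from 58.6 CPM to 165 CPM in the anti-CD9 library. In the cluster led by *Themis* and *Cd6*, it was 161 CPM against 165 CPM. In the cluster led by *Trdc* and *Trgc1*, constant regions of the gamma and delta T cell receptor chains, it was 205.5 CPM against 77.8 CPM. These values by cluster include marked doublets, which held 62.8% of the T cell *Cd9* UMIs in the anti-CD9 library. Marked doublets were 9.1% of the cells in the cluster led by *Themis* and 3.6% in the one led by *Trdc*. Their part in the difference between the clusters was not tested.

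B cell-like cells were few, and 27.6% and 31.1% of them were marked as doublets. *Cd9* was 937.5 CPM (95 UMIs) against 380.2 CPM (89 UMIs), a log2 ratio of -1.30 (-1.74 to -0.87), but 82.1% and 86.5% of these UMIs lay in the marked cells. Without them, 17 and 12 *Cd9* UMIs in 21 and 71 cells were left, 325.6 CPM against 94.7 CPM. *Cd81* was 671 CPM against 261 CPM, and 421 CPM against 174 CPM without marked cells. *Cd37* differed by less than its counting error, at a log2 ratio of -0.09 (-0.46 to 0.295). Of 5 members with at least 50 UMIs, 2 were 2-fold lower, where 4.68% of 1196 genes were 2-fold lower and 10.3% were 2-fold higher (15.0% either way).

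In plasma cell-like cells *Cd81* was the highest member, at 353.5 CPM against 264 CPM, a log2 ratio of -0.42 (-0.62 to -0.23). *Cd9* was 205 CPM against 132 CPM, a log2 ratio of -0.64, and 113 CPM against 132 CPM without doublets, a log2 ratio of 0.22 (-0.09 to 0.535). The 7 marked cells of 149 in the control library held 49.0% of its *Cd9* UMIs there. *Cd63* was 76.9 CPM against 25.35 CPM, the 1 of 6 members past 2-fold, where 4.33% of 4343 genes were 2-fold lower and 4.88% were 2-fold higher (9.21% either way). Marked cells held 49.1% of its control UMIs, and without them it was 42.3 CPM against 25.5 CPM, a log2 ratio of -0.73 that is no longer past 2-fold. *Cd53* was 105 CPM against 145 CPM, a log2 ratio of 0.47 (0.16 to 0.78).

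Dendritic cell-like cells had 97 and 186 cells. *Cd9* was 443 CPM against 258 CPM, a log2 ratio of -0.78 (-1.04 to -0.52). *Cd81*, *Cd63* and *Cd37* were 2-fold lower, at log2 ratios of -1.25, -1.85 and -1.15, 3 of 8 members against 2.60% of 4886 genes, and 4.22% of genes were 2-fold higher (6.82% either way). *Cd53* was higher, at 192 CPM against 355 CPM, a log2 ratio of 0.89 (0.57 to 1.22), and so was *Tspan14*, at 59.2 CPM against 92.8 CPM. Without marked doublets *Cd81* was 139.4 CPM against 32.8 CPM and *Cd63* 166.9 CPM against 32.8 CPM, while *Cd37*, at a log2 ratio of -0.96, was no longer past 2-fold and *Cd9* was at -0.77. In these cells the summed T cell markers were 1463 CPM against 240.4 CPM and the neutrophil markers 68.2 CPM against 499.8 CPM. Monocyte or macrophage markers summed to 2735 CPM against 4996 CPM and microglial markers to 870.4 CPM against 483.0 CPM. The cells' own dendritic cell markers summed to 2430 CPM against 1842 CPM. The part of these markers in the ratios was not tested. Among the glia that came through the CD45 sort, *Cd9* was 730.0 CPM against 348 CPM in astrocyte-like cells, where it was the 1 of 7 members past 2-fold against a background of 9.43% of genes 2-fold lower and 3.66% 2-fold higher (13.1% either way). Monocyte or macrophage markers in the astrocyte-like cells summed to 316.0 CPM against 4034 CPM and neutrophil markers to 101.9 CPM against 1706 CPM. Microglial markers in them summed to 1709 CPM against 1264 CPM, 12.7% and 14.4% of the level in microglia-like cells. *Cd9* stood at 17.9% and 19.1% of its level in microglia-like cells. *Cd9* was 1387 CPM against 869 CPM in oligodendrocyte-like cells. There *Cd81*, at 971.5 CPM against 337.5 CPM, was the 1 of 6 members past 2-fold, with 11% of genes 2-fold lower and 4.67% 2-fold higher (15.7% either way). The oligodendrocyte-like cells held neutrophil markers at 169.0 CPM against 5380 CPM, microglial markers at 3474 CPM against 1565 CPM and T cell markers at 1084 CPM against 306.8 CPM. The part of these markers in the glial values was not tested. In astrocyte- and oligodendrocyte-like cells the counts past 2-fold were near the shares of all genes, so they are no result about the members. Mural or fibroblast-like cells, with 16 cells under anti-CD9 Ab, gave *Cd9* at 892 CPM and 999 CPM, with 15 UMIs in the latter. There 2 members had at least 50 UMIs, and *Cd81* (48 and 3 UMIs) was the 1 past 2-fold, with 20.5% of genes 2-fold lower and 10.0% 2-fold higher (30.6% either way).

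**Figure D3:**
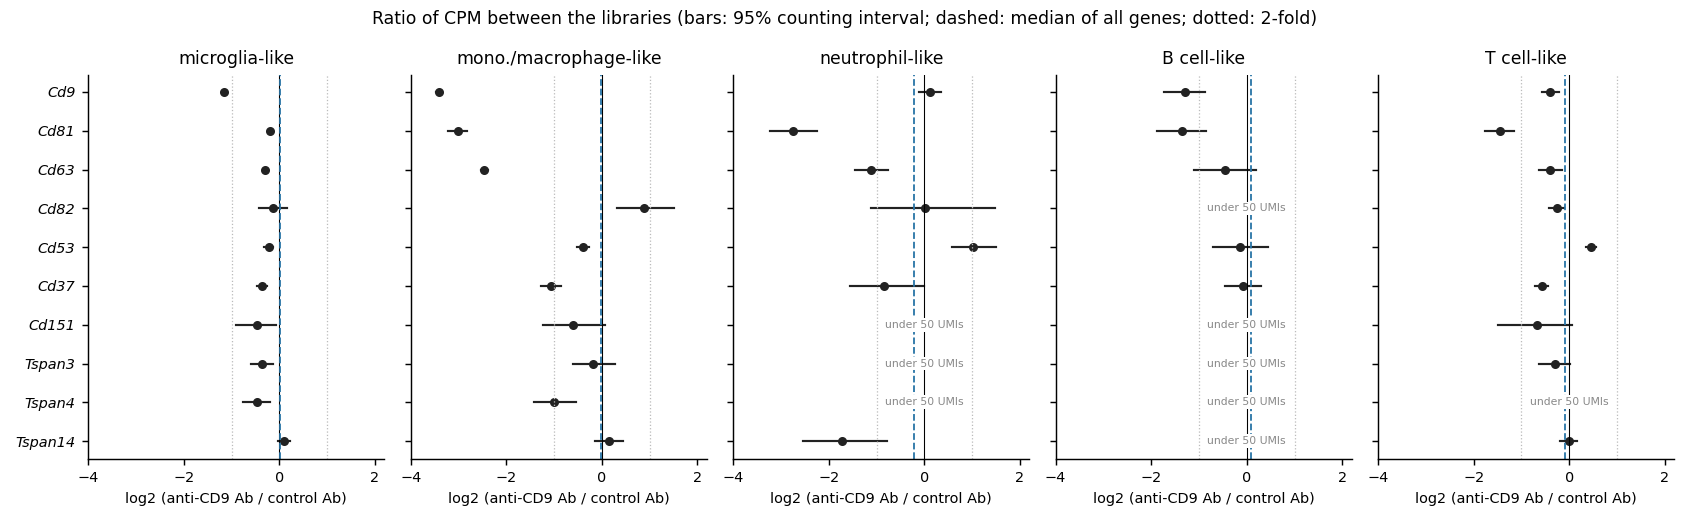
Log2 ratio of each tetraspanin, anti-CD9 Ab over control Ab, in 5 cell types; points are ratios of 1 library to 1 library, bars are exact 95% intervals, dotted lines mark 2-fold, dashed lines mark the median of all genes, and members under 50 UMIs have no point. *Cd9* lies at -3.40 in monocyte- or macrophage-like cells, -1.17 in microglia-like cells and 0.11 in neutrophil-like cells.

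The share of single cells with a *Cd9* UMI was compared after every cell had been thinned to 1000 UMIs. It was 89.8% (88.4% to 91.1%, exact binomial) of 1912 microglia-like cells in the control library and 70.5% (67.2% to 73.55%) of 833 in the anti-CD9 library, and the median count per cell was 3 and 1. In monocyte- or macrophage-like cells it was 84.4% (78.7% to 89.0%) of 211 and 25.1% (22.7% to 27.6%) of 1247, with medians of 4 and 0. Most of the latter cells thus gave no *Cd9* UMI at this depth. At a fixed depth the share of cells with a UMI follows the level, so it is not a separate measurement. In neutrophil-like cells it was 70.0% (45.7% to 88.1%) of 20 and 77.2% (75.15% to 79.1%) of 1795, after 43 and 841 shallower cells had been left out. T cell-like cells had the lowest *Cd9* CPM of the named types in both libraries while doublets were kept. Their share was 13.95% of 2466 cells in the control library (median depth 1636.5 UMIs before thinning). It was 9.04% of 974 in the anti-CD9 library (median 2457.5 UMIs), and 5.17% of the latter without doublets. These shares serve as a low reference, and whether they are background was not tested. The plasma cell-like share in the control library, 13.6%, was close to the T cell share of 13.95%. In the anti-CD9 library it was 11.4% (6.68% to 17.9%), above 9.04% but with an interval that includes it. The B cell-like shares, 37.0% (19.4% to 57.6%) and 20.9% (13.1% to 30.7%), lay above those of T cells, but without doublets the share in the anti-CD9 library was 11.3%. Without thinning the shares were 97.0% and 92.6% in microglia-like cells, 93.4% and 53.7% in monocyte- or macrophage-like cells, 74.6% and 75.9% in neutrophil-like cells, and 21.5% and 16.5% in T cell-like cells.

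The shares of other members were taken in the same thinned cells. *Cd81* was found in 86.8% and 79.95% of the thinned microglia-like cells, and *Cd63* in 64.7% and 65.55%. *Cd63* was found in 76.3% and 25.9% of monocyte- or macrophage-like cells. *Cd53* was found in 45.0% and 64.6% of neutrophil-like cells and in 28.9% and 35.4% of T cell-like cells. *Cd82* was found in 18.6% and 14.9% of T cell-like cells. The mean number of different members per thinned cell was 3.505 and 3.05 in microglia-like cells and 2.56 and 1.12 in monocyte- or macrophage-like cells.

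**Figure D4:**
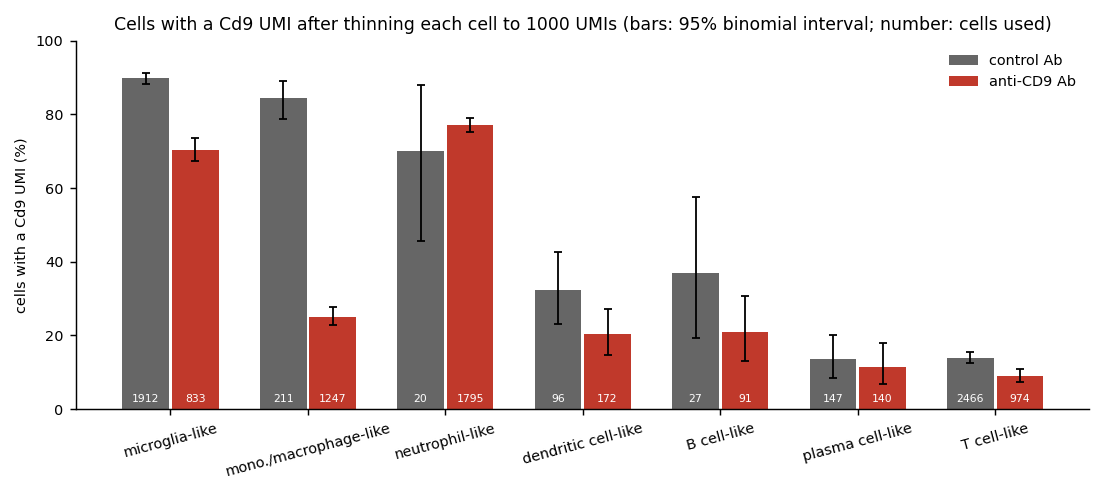
Percent of cells with at least 1 *Cd9* UMI after thinning each cell to 1000 UMIs, by cell type and antibody; whiskers are exact binomial 95% intervals, the number in each column is the cells used, and cells of 1 library are not replicates. Monocyte- or macrophage-like cells stand at 84.4% in the control library and 25.1% in the anti-CD9 library, and neutrophil-like cells at 70.0% and 77.2%.

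Because RNA freed from broken cells can enter any droplet, each member was set beside microglial genes as a percent of the level in microglia-like cells of the same library. In T cell-like cells in the control library, the C1q genes, made by microglia and macrophages, stood at 3.74% of the microglial level. *Cd9* at 4.08%, *Cd81* at 4.56% and *Cd63* at 5.395% lay close to them. With anti-CD9 Ab the C1q genes stood at 1.99%, *Cd81* at 1.905% and *Cd9* at 6.96%. The neutrophil markers in those T cell-like cells were summed to 1260 CPM, 3.0% of their level in neutrophil-like cells, and *Cd9* stood at 5.31% of the neutrophil level. Without doublets these were 0.792% and 2.2%. *Cd53*, at 86.65% and 138% of the microglial level in T cell-like cells, stood far above the microglial genes in both libraries.

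In neutrophil-like cells *Cd81* ran with the C1q genes, at 24.8% beside 20.1% in the control library and 4.19% beside 4.23% in the anti-CD9 library. *Cd9*, at 54.1% and 131%, and *Cd53*, at 143% and 337.5%, did not. In monocyte- or macrophage-like cells the C1q genes stood at 39.3% and 24.0% of the microglial level, *Cd9* at 101.9% and 21.6%, and *Cd81* at 18.9% and 2.67%. In plasma cell-like cells *Cd81* stood at 15.5% and 13.2%, above the C1q genes at 4.28% and 1.32%, while *Cd9* at 5.03% and *Cd63* at 4.46% in the control library did not stand clear of them. In the anti-CD9 library *Cd9* stood at 7.24% and *Cd63* at 1.80% there. The part of free RNA in each difference was not tested.

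**Figure D5:**
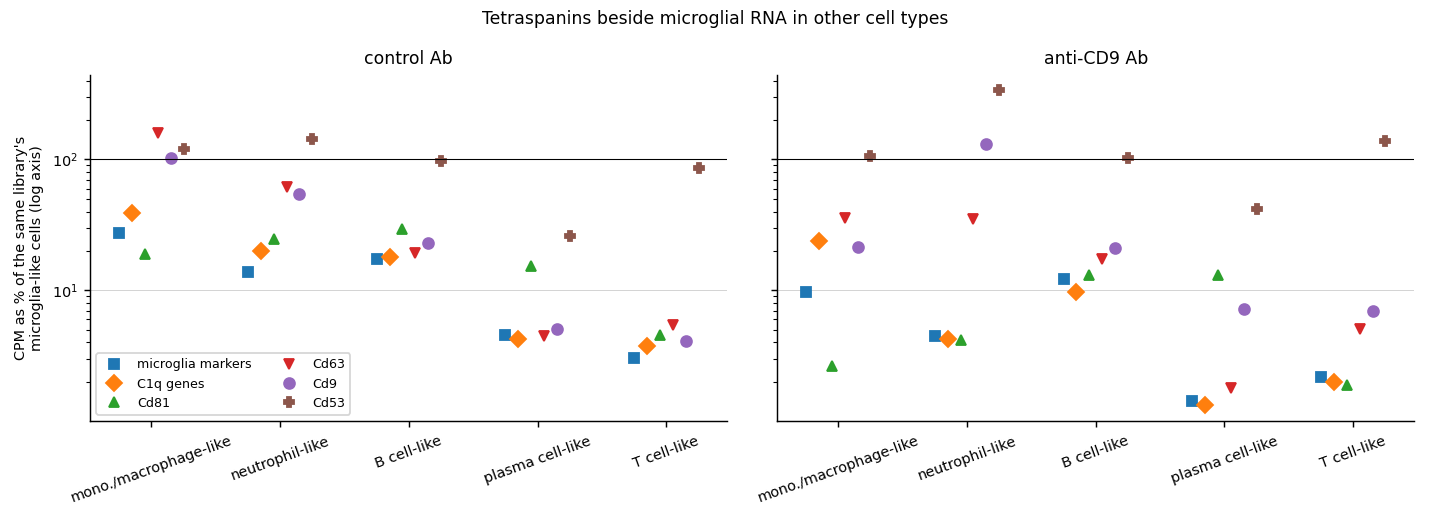
Microglial markers, C1q genes and 4 tetraspanins in other cell types, as a percent of their level in microglia-like cells of the same library (log axis), in the control library and in the anti-CD9 library; there is 1 library per antibody. In neutrophil-like cells *Cd81* lies beside the C1q genes in both libraries, and *Cd9* and *Cd53* lie above them.

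The make-up of the tetraspanin mRNA also differed between types. With control Ab, *Cd9* made up 44.0% of the members' UMIs in microglia-like cells, *Cd81* 24.6% and *Cd63* 18.6%. With anti-CD9 Ab these were 29.1%, 32.0% and 22.5%, so *Cd81* took the highest share. In monocyte- or macrophage-like cells *Cd9* made up 50.5% and 24.4% and *Cd53* 5.92% and 23.0%, while *Cd63* held 33.4% and 31.0%. Neutrophil-like cells had *Cd9* at 44.7% and 54.1%. *Cd53* led in T cell-like cells, at 24.0% and 36.8%, *Cd37* in B cell-like cells in the anti-CD9 library, at 36.5%, and *Cd81* in plasma cell-like cells, at 40.0% and 39.25%. The summed level of the members was 9275 CPM and 6242 CPM in microglia-like cells, 8222 CPM and 1611 CPM in monocyte- or macrophage-like cells, 4934 CPM and 4402 CPM in neutrophil-like cells, and 1462 CPM and 1302 CPM in T cell-like cells.

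The wider family and its partners were read from 3 lists. Of 21 other tetraspanins, 10 had enough UMIs in microglia-like cells, 1 was 2-fold lower and 0 were 2-fold higher, with a median log2 ratio of -0.06. The lower one was *Upk1b*, at 18.2 CPM against 3.61 CPM, and *Tspan5*, another partner of ADAM10, was 83.3 CPM against 42.6 CPM. Of 16 proteins known to associate with tetraspanins or to be handled by them, 11 were measured in microglia-like cells, and 0 were 2-fold lower and 2 higher. These were *Cd36*, a scavenger receptor, at 17.2 CPM against 62.65 CPM, and *Ifitm1*, an interferon-induced membrane protein, at 6.97 CPM against 56.75 CPM. Read against the 3.16% of all genes that were 2-fold higher, the count is 2 of 11. Neutrophil markers in the same microglia-like cells summed to 508 CPM against 1112 CPM, the latter 2.65% of their level in neutrophil-like cells of that library, where *Ifitm1* was 2841 CPM, and their part in its value was not tested. *Sdcbp*, which encodes the vesicle adaptor syntenin, was 237 CPM against 317.5 CPM, and *Clec7a*, the receptor Dectin-1, was 229.8 CPM against 127 CPM. Of 16 genes of vesicle formation and release, 14 were measured there, and 0 were 2-fold lower or higher. *Anxa5* had the largest difference of them, 156.8 CPM against 86.6 CPM.

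In monocyte- or macrophage-like cells, 5 of the other tetraspanins were measured and 0 were past 2-fold, with a median of -0.235. Of 13 measured partners, 2 were 2-fold lower and 5 were 2-fold higher, beside 6.41% and 8.0% of all genes. *Clec7a* was 298 CPM against 117 CPM and *Cd36* 18.1 CPM against 7.07 CPM, so the ratio of *Cd36* had the other sign than in microglia-like cells, a difference that was not tested. *Cd14*, the lipopolysaccharide co-receptor, was 124 CPM against 666 CPM. All 14 measured vesicle genes were within 2-fold. In neutrophil-like cells *Cd14* was 127 CPM against 3078 CPM and *Ifitm1* 1216 CPM against 2841 CPM. These were the 2 of 9 partners that were 2-fold higher, and 0 were lower. That count is near the 19.9% of all genes that were 2-fold higher, so it is no result about the partners. Of 13 measured vesicle genes there, 3 were 2-fold lower and 2 higher, near the 39.5% of all genes that were past 2-fold either way, so these counts are no result about the list. In T cell-like cells 0 of 4 other tetraspanins and 0 of 14 vesicle genes were past 2-fold, and 3 of 11 partners were 2-fold higher, *Cd14* and *Ifitm1* among them, beside 4.05% of all genes. The neutrophil markers were higher in the same cells, at 189 CPM against 1260 CPM, and their part in these values was not tested.

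Across 18 pairs of cell type and library, the gene whose log level was most like that of *Cd9* among 5584 genes was *Cd63* (Pearson r = 0.923), whose promoter window printed above held no GC box where that of *Cd9* held 2. *Sirpa* at 0.878, *Rcan1* at 0.872, *P2ry13* at 0.866 and *Lamp2* at 0.862 followed. Among the other members the coefficient was 0.604 for *Cd81*, 0.618 for *Tspan4*, 0.301 for *Cd53*, 0.274 for *Cd37* and -0.097 for *Cd82*. The points share 2 libraries, so these are descriptions.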

How the data were processed

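The authors deposited filtered matrices of counts, whole UMIs per gene and cell, which the labels tie to Cell Ranger 8.0.0 and GRCm39; the study's methods name an earlier version and build. The members, gene lists and marker lists were chosen with earlier results of these data known. Cells with 200 to 7500 genes and at most 2% mitochondrial UMIs were kept. They were clustered in Seurat 5.3.0 (R 4.3.3) after anchor integration, with 2000 variable genes without tetraspanins, 30 principal components and resolution 0.8, and 24 clusters were made. Doublets were predicted with scrublet in scanpy 1.11.5, at a rate of 0.8% per 1000 barcodes. Counts were summed per type and library (SciPy 1.17.1), with exact Poisson intervals for levels, conditional binomial intervals for ratios and binomial intervals for shares, all at 95%. A gene was compared where both libraries together held at least 50 UMIs of it. Where a median of all genes is given, it is over those genes. The computation was tested on simulated data. All members were named; from the 3 lists, up to 3 genes with the highest and 3 with the lowest ratio in microglia-like and monocyte- or macrophage-like cells and the gene with the highest level in a cell type; and the 5 genes most like Cd9. The 2 partner genes named in T cell-like cells were chosen after their values were seen, and the other is not reported here. Alternatives were 5% mitochondrial UMIs, no integration, 20 components, another seed, no doublets, scaling by the median of gene ratios, each cell weighted alike, thinning and other minimum counts.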

Additional observations from a re-analysis of the deposited data

Results flagged for a closer look

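Members whose log2 ratios, each with an interval clear of 0, had opposite signs in different cell types were picked out, and these differences between types were not tested. *Tspan14* had the largest span, 2.38 on the log2 scale, between dendritic cell-like cells at 0.65 and neutrophil-like cells at -1.73. The latter value rested on 13 control UMIs, in a type where 39.5% of all genes were past 2-fold either way. *Cd82* spanned 1.66, between monocyte- or macrophage-like cells at 0.89 and dendritic cell-like cells at -0.77. The former *Cd82* value rested on 28 control UMIs. Without marked doublets the latter was -0.66 (-1.35 to 0.04), an interval that includes 0. *Cd53* spanned 1.41, between neutrophil-like cells at 1.01 and monocyte- or macrophage-like cells at -0.40, and was higher in the anti-CD9 library in 5 cell types and lower in 2. Oligodendrocyte-like cells were 1 of the 5, with *Cd53* at 139 CPM against 245.5 CPM, and neutrophil markers in them summed to 169.0 CPM against 5380 CPM, whose part was not tested.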

How the results depend on the processing

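No paired analysis was possible because there was 1 library per antibody and the labels give no replicate numbers. The *Cd9* log2 ratio in microglia-like cells was -1.27 with 5% mitochondrial UMIs and -1.10 with each cell weighted alike. In monocyte- or macrophage-like cells it was -3.31 with another seed, -3.555 without doublets and, chosen after seeing the data, -3.54 without 3 sub-clusters. In neutrophil-like cells it was 0.48 in cells of at least 2000 UMIs (5 and 154 cells), and it ranged from -0.11 to 0.48 over the alternatives. In B cell-like cells it was -0.75 with no integration and -1.78 without doublets. In T cell-like cells it was -1.68 with 5% mitochondrial UMIs, -1.37 with no integration, -0.895 with 20 components, -0.82 with another seed, -1.55 without doublets and 0.002 in cells of at least 2000 UMIs (649 and 639 cells), the 1 alternative that turned its sign. Why these differed was not tested. In T cell-like cells the number of members past 2-fold was 3 with 5% mitochondrial UMIs, 2 with no integration and 2 without doublets. In B cell-like cells that number was 1 with no integration, 0 without doublets, 1 in cells of at least 2000 UMIs and 6 with no minimum count. Without doublets *Cd9* (17 and 12 UMIs) and *Cd81* (22 and 22 UMIs) fell below the minimum count and were not counted. Their log2 ratios there, -1.78 and -1.28, were still past 2-fold, so the 0 does not show that they came within 2-fold. In neutrophil-like cells the number of members past 2-fold was 7 with no minimum count. The shares of all genes past 2-fold given above are for the main setting. These counts therefore have no share beside them and are no result about the members. The share of cells with a *Cd9* UMI was, without thinning and then when thinned to 2000 UMIs, 97.0% and 97.5% in microglia-like cells in the control library, 92.6% and 84.8% in the anti-CD9 library, 93.4% and 93.2% in monocyte- or macrophage-like cells in the control library, and 53.7% and 37.7% in the anti-CD9 library. In T cell-like cells it was 21.5% and 19.7% in the control library and 16.5% and 14.55% in the anti-CD9 library, and 5.17% without doublets. In neutrophil-like cells thinned to 2000 UMIs it was 100% of 5 control cells and 92.9% of 154 cells of the anti-CD9 library. In B cell-like cells it was 58.6% in the control library without thinning, and in the anti-CD9 library 42.9% when thinned to 2000 UMIs and 11.3% without doublets. Values of the other members under these alternatives were counted in microglia-, monocyte- or macrophage-, neutrophil-, B cell- and T cell-like cells only. Of 288 such values, 253 lay within the counting interval as reported and 35 lay outside it. The other sign was found for 16, all of them for ratios whose interval included 0. With 1 library per antibody, 63 neutrophil-like and 29 B cell-like control cells set the precision. Members with few UMIs in a thin group could not be compared, such as *Tspan3* with 1 control UMI in neutrophil-like cells.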
